A study of Mus musculus with 20 samples.

Results

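The AP-1 genes Fos, Fosb, Fosl1, Fosl2, Jun, Junb and Jund were chosen by name from the RefSeq mouse annotation, 7 of the 21631 protein-coding genes on chromosomes 1 to 19 and X. They were followed through 20 CUT&RUN peak lists from sorted nuclei of adult mouse whole brain. CUT&RUN maps a chromatin mark or a DNA-binding protein by tethering a nuclease to an antibody in intact nuclei and sequencing the fragments it releases. There were 5 antibodies (H3K4me1, H3K4me3, H3K27ac, H3K27me3 and EGR1), nuclei labelled excitatory neuron and nuclei labelled inhibitory neuron, and 2 libraries for each pair, so 10 groups of 2. All libraries carried the genotype label Sun1 f/f | Emx1Cre (+), came from mice aged 8 weeks and named no treatment. Sun1 f/f is a Cre-dependent nuclear envelope tag and Emx1 Cre acts mainly in the lineage of cortical and hippocampal excitatory neurons. The gate that separated the types and the brain regions behind each sort were not given in the labels. Nothing in the labels ties the 2 libraries of a group to different animals, and the spread between them may be technical.

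AP-1 is a dimer of basic leucine zipper proteins: a Fos protein pairs with a Jun protein, and Jun proteins also pair with each other. In neurons Fos, Fosb and Junb are classic immediate early genes, switched on by synaptic activity through signalling to factors already bound at their promoters and enhancers, with no new protein needed, while Jund is expressed more constantly. Fos is known to be flanked by several enhancers that respond to different stimuli. EGR1 is a zinc finger factor that binds GC-rich sites and is itself the product of an immediate early gene. H3K4me3 marks promoters, H3K4me1 marks enhancers and promoter flanks, H3K27ac marks active promoters and enhancers, and H3K27me3 is the Polycomb mark of repressed chromatin.

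The stretches before the annotated start of Fos and Jun are shown because EGR1 peaks lay on them in all 4 EGR1 libraries (RefSeq sequence, mm10, 250 bases each, 5′ to 3′ on the gene's strand). EGR1 peaks also lay on that of Fosb in every library. Per library they touched 47.8% to 52.7% of all 17274 such stretches. Capitals in Fos mark both copies of the cyclic AMP response half-site TGACG and the TATA element TATAAA. Capitals in Jun mark the Jun site TGACATCA, a variant of the AP-1 element known from this promoter. The Fos stretch is chr12:85473640-85473889 on the plus strand and the Jun stretch is chr4:95052223-95052472 on the minus strand.
Fos: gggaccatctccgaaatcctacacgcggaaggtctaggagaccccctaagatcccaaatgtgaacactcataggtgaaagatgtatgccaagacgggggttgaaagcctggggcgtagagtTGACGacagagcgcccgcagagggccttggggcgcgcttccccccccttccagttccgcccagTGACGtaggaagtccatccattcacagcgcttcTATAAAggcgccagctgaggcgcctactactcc
Jun: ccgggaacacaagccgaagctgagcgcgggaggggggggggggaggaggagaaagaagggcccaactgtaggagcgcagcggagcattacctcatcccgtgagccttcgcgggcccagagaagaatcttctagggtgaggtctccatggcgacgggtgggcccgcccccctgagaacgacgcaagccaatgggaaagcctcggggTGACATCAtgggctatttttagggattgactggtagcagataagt

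An EGR motif, GCG and GGGCG with any base between them, on either strand, was found before the start of Fosb and Fosl2 and not in these windows of the other members in the RefSeq table. For these genes only the 30 bases around the motif are shown, with the EGR motif in capitals and, in Fosb, also the half-site TGACG beside it. The Fosb site is chr7:19310077-19310106 on the minus strand and the Fosl2 site is chr5:32136382-32136411 on the plus strand.
Fosb: gTGACGcaagcGCGGGGGCGggtcccggag
Fosl2: tccggctgcgcGCGGGGGCGgaagggcgcg

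Both genes carry the same 9 letters, GCGGGGGCG, but the EGR1 peaks lay differently. In Fosb the motif was inside the EGR1 peak of every EGR1 library. In Fosl2 it was outside all of them: the 4 peaks there spanned from -1508 to -208 bases before the start, and the motif begins at -79. Of the 17274 mouse promoters of the same length in the table, 6.33% hold the EGR motif, 20.5% hold TGACG, 2.69% hold TGACATCA and 12.5% hold TATAAA, each on either strand; TGACG can lie inside a longer response element. A match of letters is a description and not a binding site. Fosl1 has no entry in the table.

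The peak lists set the limits of what follows. Each list came from 1 library, with no read counts, so the depth of the libraries is unknown. The lists held 49899 to 98534 peaks for EGR1, of which 90.7% to 98.1% passed a q-value of 0.05, and 231996 to 313235 for H3K27me3, of which 0.00488% to 0.00990% did. For H3K4me1 the share was 0.00870% and 0.219% in the libraries labelled excitatory and 1.43% and 9.61% in those labelled inhibitory. For H3K27ac it was 2.57% and 4.94% against 31.8% and 35.1%, in the same order. For H3K4me3 it was 23.9% to 47.6% over the 4 libraries. H3K4me1 peaks covered 218 and 257 Mb in the libraries labelled excitatory and 188 and 163 Mb in those labelled inhibitory. Peak strength thus differed with the label for H3K4me1 and H3K27ac, and its part in the differences below was not tested. The EGR1 peaks covered 48.8 and 50.2 Mb in the libraries labelled excitatory and 22.6 and 29.7 Mb in those labelled inhibitory.

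The neuron labels were checked against markers at gene ends before any comparison, and they held in part. EGR1 calls on normalized coverage followed the labels in the window of the gene body plus 50 kb on each side (limma, as below). There 5 of 7 excitatory neuron markers were called higher in the libraries labelled excitatory. Of 7 inhibitory markers 4 (Gad1, Gad2, Slc32a1, Dlx5) were called higher in those labelled inhibitory, and none of either list was called the other way. Before normalization 3 inhibitory markers were higher in both libraries labelled inhibitory and 3 in both labelled excitatory. Of all genes tested, 1.39% and 80% were, in that order. At gene ends 5 inhibitory markers could be tested for EGR1 and all 5 were higher in both libraries labelled inhibitory, with none called. In the same window 3 inhibitory markers for H3K4me1 and 2 for H3K27ac were called higher in the libraries labelled excitatory, against the label. None of 7 inhibitory neuron markers (Gad1, Gad2, Slc32a1, Dlx1, Dlx2, Dlx5, Lhx6) had an H3K27ac peak in either library labelled inhibitory, while their summed coverage was 50.6 and 48.8 percentage points in the libraries labelled excitatory. Their H3K4me3 sum was 71.8 and 90.6 in the libraries labelled inhibitory and 69.1 and 77.2 in those labelled excitatory. Markers of cerebellar granule cells, which are excitatory, summed to 135 and 178 for H3K4me3 in the libraries labelled inhibitory against 0 and 68.9, and all 6 were higher there. The summed coverage of 7 excitatory neuron markers overlapped between the labels for H3K4me3 and for H3K27ac. The markers thus go against the label of the H3K27ac libraries labelled inhibitory, and no H3K27ac difference between types can be had without them. "Excitatory" and "inhibitory" below name the label on a library, and in sorted bulk nuclei fewer cells with a mark and less of the mark per cell cannot be told apart.

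At their gene ends (2 kb on each side of both ends, merged) the AP-1 genes were among the more widely covered genes for H3K4me3 and EGR1 in both neuron types. H3K4me3 peaks covered 23.5% to 61.8% of these windows over the 7 genes and 4 libraries, beside a median over all genes of 15.8% to 18.2%. In every H3K4me3 library Fos, Fosb, Fosl1, Jun, Junb and Jund each stood above at least 92.6% of all genes, and Fosl2 above 67.3% to 88.9%. EGR1 coverage placed Fosb, Fosl1 and Jun above at least 96.5% of genes in every EGR1 library. In a short gene the windows of both ends merge close to the start, so a rank may also depend on gene length. Fos, Jun, Junb and Jund are 1840 to 3385 bases long and Fosl2 is 21369. The part of gene length in these ranks was not tested. Jun and Fosb held the widest EGR1 coverage in the excitatory libraries (37.4% and 33.7% for Jun, 29.3% and 35.1% for Fosb), with overlapping values, while Fos (17.4% and 12.2%), Fosl2 (15.7% and 14.6%), Jund (16.0% and 20.4%) and Junb (20.2% and 19.3%) lay below them, each overlapping at least 1 of the others.

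**Figure D1:**
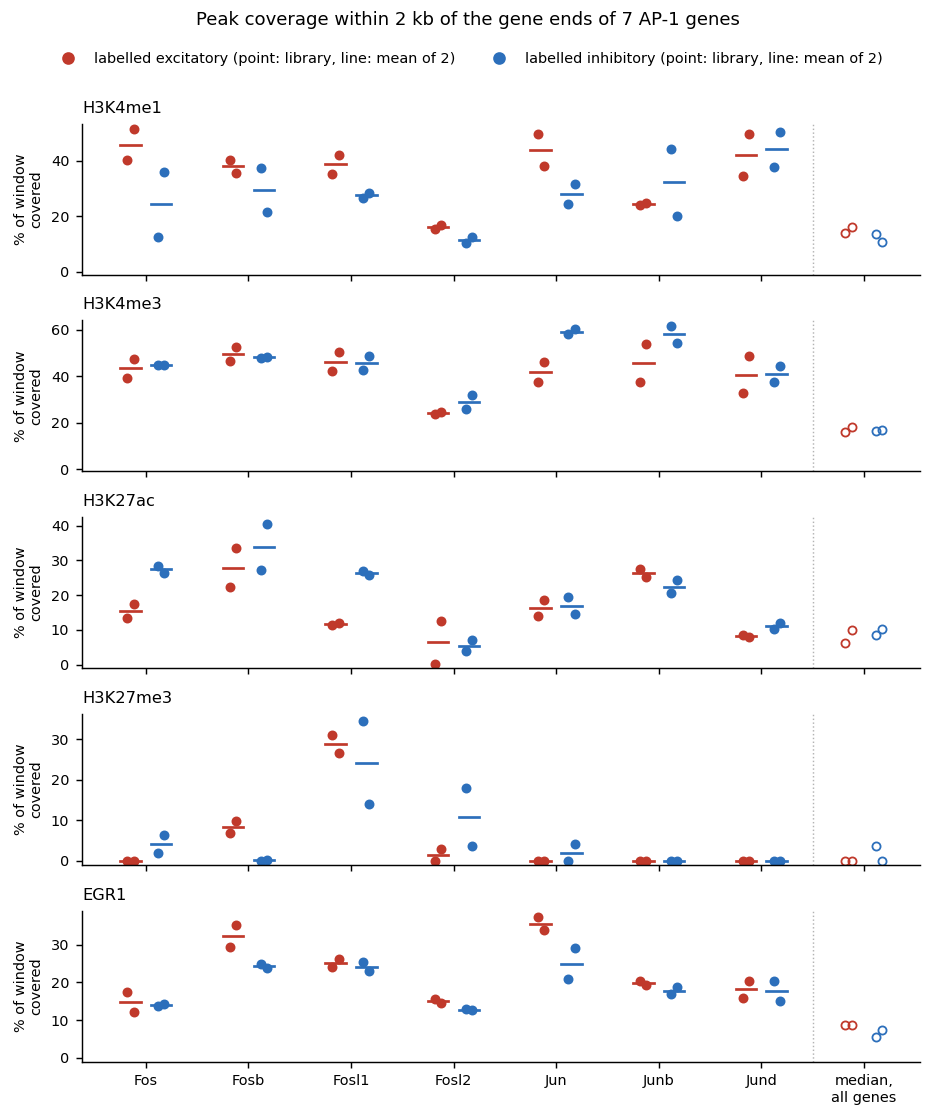
Percent of each gene's 2 kb gene-end windows covered by peaks (y axis) for the 7 AP-1 genes (x axis), with 1 panel for each antibody; points are libraries, lines are means of 2, and open points at the right are the medians over all genes. H3K4me3 on Jun is higher in both libraries labelled inhibitory (58.1% and 60.5%) than in those labelled excitatory (37.7% and 46.0%), and Junb and Jund have no H3K27me3.

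None of the 7 genes passed the test for a difference between neuron types at its gene ends for any antibody. The test was limma on quantile-normalized coverage, with Benjamini-Hochberg adjustment over all genes of an antibody and a threshold of 0.05, and the background share of genes called was 3.02% for H3K4me3, 1.31% for H3K4me1 and 0% for H3K27ac, H3K27me3 and EGR1. For H3K27ac, H3K27me3 and EGR1, 2045, 2374 and 2107 genes had an unadjusted limma p under the same threshold. Among the members these were Fosl1 for H3K27ac and Fosb for H3K27me3. An exact permutation test of 2 libraries against 2 cannot give a two-sided p below 0.333, so no single gene could be called by it.

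Among the Fos family, Fos itself binds DNA only with a partner and is the usual readout of neuronal activity. H3K4me3 covered 39.4% and 47.5% of its gene ends in the excitatory libraries and 45.1% and 44.9% in the inhibitory ones. These values overlapped. H3K4me1 covered 40.1% and 51.4% against 12.5% and 36.1%, a normalized difference of 19.9 ± 8.96 percentage points (SE; limma adjusted p = 0.238). Both excitatory libraries were above both inhibitory ones, but the inhibitory pair differed by more than the gap between the types. H3K27ac went the other way, with 13.6% and 17.4% against 28.4% and 26.4%, and the groups did not overlap; the normalized difference was -7.73 ± 4.24 (SE; limma adjusted p = 0.466). On the 250 bases before the Fos start, H3K4me1 peaks covered 90% and 100% in the excitatory libraries and 0% in both inhibitory ones, while H3K4me3 covered 100% in all 4 libraries. Over all genes, H3K4me1 peaks touched 23.65% and 28.27% of such stretches in the excitatory libraries and 25.17% and 21.66% in the inhibitory ones.

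Fosb, whose truncated product accumulates with repeated stimulation, had EGR1 coverage of 29.3% and 35.1% in the excitatory pair and 24.8% and 23.8% in the inhibitory pair. The groups did not overlap before normalization, with both excitatory libraries higher, as in 47.4% of all genes tested. After normalization the difference was 2.3 ± 3.17 points (SE; limma adjusted p = 0.770). Its H3K27me3 coverage was 6.96% and 9.77% in the excitatory libraries and 0% and 0.175% in the inhibitory ones (normalized difference 9.98 ± 3.08, SE; limma adjusted p = 0.167). Its H3K4me3 values, 46.7% and 52.6% against 48.0% and 48.5%, overlapped.

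Fosl1, which encodes FRA1 and lacks the transactivation domain of Fos, was the member with the most H3K27me3 at its gene ends, with 31.0% and 26.7% in the excitatory pair and 34.6% and 14.0% in the inhibitory pair. At its lower-coordinate end an EGR1 region present in all 4 libraries (chr19:5447406-5448152) overlapped H3K4me3 and H3K27me3 peaks in all 4 libraries of each mark and no H3K27ac peak. No other EGR1 region at the gene ends of an AP-1 gene overlapped H3K27me3 in all 4 libraries. Its H3K27ac coverage was 11.3% and 12.0% against 26.9% and 25.7%, with the higher values in the inhibitory libraries (normalized difference -11 ± 4.24, SE; limma adjusted p = 0.321). Other coding genes lie in its window, the nearest 1625 bases away, so parts of this coverage may belong to a neighbour.

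Fosl2, which encodes FRA2, had the narrowest H3K4me3 of the family, 23.5% and 24.5% in the excitatory pair and 25.8% and 32.1% in the inhibitory pair. The groups did not overlap, and the normalized difference was -5.17 ± 2.51 points (SE; limma adjusted p = 0.355). Its single EGR1 region at the gene ends, chr5:32134964-32136264, was present in all 4 libraries with fold enrichments of 5.07, 5.05, 4.79 and 6.27 as the authors' peak caller gave them. No H3K27ac peak reached the 250 bases before its start in any library, where 35.0% to 48.3% of all such stretches were touched per library.

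Among the Jun family, Jun showed the largest H3K4me3 difference of the 7 genes. Its coverage was 37.7% and 46.0% in the excitatory libraries and 58.1% and 60.5% in the inhibitory ones. Both inhibitory values were above both excitatory values, and the normalized difference was -17.3 ± 3.45 points (SE; limma adjusted p = 0.0532), which misses the threshold. Over 12 alternatives the sign was kept in 12 and the adjusted p ran from 0.0103 to 0.489, past the threshold in 2 of them. The same libraries differed in granule cell markers (0 and 68.9 against 135 and 178 summed points), and the part of this in the Jun value was not tested. H3K4me1 at Jun ran the other way, 49.5% and 38.2% against 24.3% and 31.7% (normalized difference 15.2 ± 8.87, SE; limma adjusted p = 0.376). EGR1 covered 37.4% and 33.7% against 20.9% and 29%, and the difference after normalization was 4.83 ± 3.26 (SE; limma adjusted p = 0.542). An antisense non-coding gene, Junos, lies in the same window, and peaks carry no strand.

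Junb, which tempers Jun activity in many cell types, had H3K4me3 coverage of 37.6% and 54.0% in the excitatory pair and 61.8% and 54.4% in the inhibitory pair. The groups barely separated (54.0% against 54.4%), and the normalized difference was -12.9 ± 5.92 points (SE; limma adjusted p = 0.331). Its main EGR1 region at the gene ends lay at -1498 to -803 bases in all 4 libraries. The 250 bases before its start had an EGR1 peak in 3 of 4 libraries and none in excitatory library 1.

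Jund had no EGR1 or H3K4me3 peak on the 250 bases before its annotated start in any library. That stretch holds 3 CpG, where the median over 17274 promoters is 10. EGR1 peaks lay inside the gene instead, in a region at 509 to 1632 bases after the start in all 4 libraries, with folds of 6.20, 6.33, 6.46 and 5.92, the strongest EGR1 enrichment at a gene end in the Jun family. H3K4me3 peaks began at 410 to 526 bases after the start. Another coding gene lies 705 bases from Jund. Coverage of H3K4me3 at Jund (32.8% and 48.7% against 37.5% and 44.6%) overlapped between types.

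H3K27me3 was nearly absent from the Jun family at gene ends. Junb and Jund had none in any of the 4 libraries, and Jun had 4.12% in inhibitory library 2, in a peak over the 250 bases before its start, and none in the others, so these genes did not enter the fit for that mark and 4 of 7 members did. Before normalization the excitatory libraries were both higher for H3K4me1 at the ends of 4 of 7 members (Fos, Fosl1, Fosl2, Jun; background 31.7% of genes tested). For EGR1 they were both higher in 4 (Fosb, Fosl2, Jun, Junb; background 47.4%). The inhibitory libraries were both higher for H3K27ac in 3 (Fos, Fosl1, Jund; background 34%) and for H3K4me3 in 3 (Fosl2, Jun, Junb; background 20.3%). With 7 genes these counts say little about the family.

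Around Fos, EGR1 peaks formed a set of distal regions shared by both neuron types. The window of the gene body plus 50 kb on each side holds no other protein-coding gene, though 4 non-coding genes lie in it. Besides the promoter (-692 to 258 bases from the start), EGR1 peaks were present in all 4 libraries at -38033 to -36944, -19013 to -17813, 11794 to 13253 and 13767 to 14314 bases. Each of these 4 distal regions also overlapped H3K4me1, H3K4me3 and H3K27ac peaks in all 4 libraries of each mark. The published name of each enhancer was not assigned here.

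The upstream distal EGR1 regions had higher fold enrichments than the promoter. At chr12:85435857-85436946, the farthest upstream, the folds in the authors' peak lists were 8.30 and 8.25 in the excitatory pair and 8.89 and 8.47 in the inhibitory pair. At chr12:85454877-85456077 they were 8.41 and 7.81 against 7.18 and 8.55. The promoter region had 4.44 and 5.81 against 5.81 and 6.88, so in each library both upstream regions stood above the promoter. Downstream, the nearer region had 6.23 and 5.95 against 6.80 and 6.15, and the farther had 5.03 and 4.94 against 3.50 and 4.29, below the promoter in 3 of 4 libraries. Neither of these upstream regions overlapped an H3K27me3 peak in any library.

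One EGR1 region near Fos was found in both excitatory libraries and in neither inhibitory library. It is chr12:85467648-85468448, at -6242 to -5442 bases, with folds of 6.5 and 4.89 and a -log10 q of 15.5 and 8.95. H3K4me3 and H3K27ac peaks overlapped it in the same pattern, in both excitatory libraries and in no inhibitory one. The H3K4me3 peaks had a -log10 q of 1.67 and 0.604 and the H3K27ac peaks 0.443 and 0.313, so 1 of these 4 passed a q-value of 0.05. H3K4me1 peaks lay there in both excitatory libraries and in inhibitory library 1, and H3K27me3 peaks in all 4 libraries, none past that q-value. The inhibitory EGR1 lists hold fewer peaks, and the absence of a peak there was not tested against read depth.

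**Figure D2:**
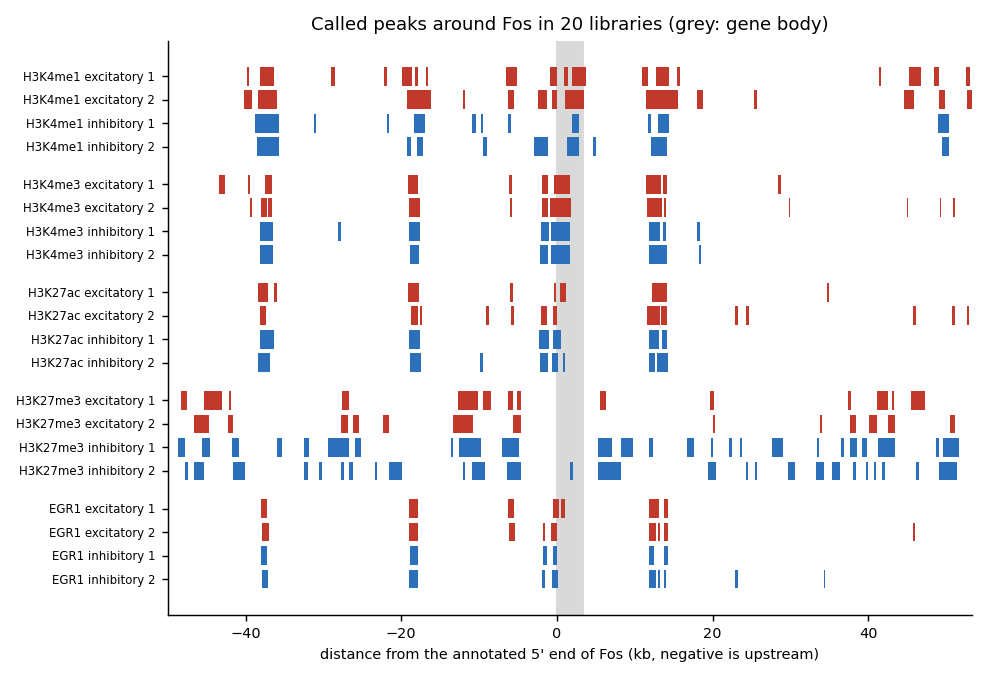
Called peaks of 20 libraries (rows, by antibody, label and replicate) against distance from the annotated 5′ end of Fos in kb (x axis); bars are peaks, red labelled excitatory and blue labelled inhibitory, and grey is the gene body. EGR1, H3K4me1, H3K4me3 and H3K27ac peaks line up in 4 distal places in all libraries of those antibodies, and an EGR1 peak about -6242 bases from the start appears in the 2 excitatory libraries.

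H3K27me3 lay mostly in the flanks of Fos, with a peak inside the gene in inhibitory library 2 alone. Its peaks covered 13.9% and 12.2% of the 50 kb window in the excitatory libraries and 25.9% and 21.8% in the inhibitory ones. Both inhibitory libraries were higher, and the normalized difference of -7.22 ± 2.05 points (SE) passed the test (limma adjusted p = 0.0262). The gap was widest downstream, where the flank had 11% and 8.12% against 28.8% and 23.8%, while the upstream flank had 19.1% and 18.1% against 26.7% and 22.3% and the gene with 2 kb on each side had 0% and 0% against 2% and 6.42%. The only other member called was Fosl1, with 5.23% and 6.61% against 6.14% and 2.62%, which overlap before normalization (normalized difference 3.77 ± 1.15, SE; limma adjusted p = 0.0350). Thus 2 of 7 members were called for H3K27me3, 1 in each direction, where the background was 29.9% of all genes, so the count is not a result about these genes. Without excitatory library 2 the Fos adjusted p was 0.176 and without inhibitory library 1 it was 0.132, in a range of 0.00202 to 0.270 over 11 alternatives, 7 of which kept the call. The Fosl1 call was lost without excitatory library 1 (0.0828), excitatory library 2 (0.0978) or inhibitory library 2 (0.229), in a range of 0.0122 to 0.473 over 11, 4 of which kept it.

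No member was called in the 50 kb window for the other antibodies. The background share of genes called was 20.5% for H3K4me1, 13.1% for EGR1, 7.59% for H3K4me3 and 5.41% for H3K27ac, and 7472, 6333, 4869 and 4806 genes had an unadjusted p under 0.05. Fosl1 came nearest for H3K27ac, at 5.83% and 6.91% against 10.1% and 11.3% (normalized difference -3.64 ± 1.03, SE; limma adjusted p = 0.0838). For H3K4me1, Fos had 14.6% and 19.4% against 9.94% and 10.9% (normalized difference 3.41 ± 1.65, SE; limma adjusted p = 0.176). Before normalization both excitatory H3K4me1 libraries were above both inhibitory ones in 4 of 7 members (Fos, Fosb, Fosl2, Jun), beside 48.5% of all genes tested.

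EGR1 coverage of the 50 kb windows was higher in both excitatory libraries for 6 of 7 members, all but Junb, beside a background of 80% of genes. After normalization the members' median difference was 0.0298 points, where the median of all genes was -0.0929. Jun, for example, had 3.39% and 3.68% against 1.45% and 2.02% and a normalized difference of 0.465 ± 0.335 (SE; limma adjusted p = 0.351). Without quantile normalization 5 of 7 members were called (all but Fos and Junb), and 10418 of all genes; with normalization none of the 7 was. For H3K27me3 both inhibitory libraries were higher in 4 of 7 members (Fos, Fosb, Junb, Jund), beside 55.5% of genes, in the direction of the wider peak coverage of those libraries (277 and 243 Mb against 182 and 216 Mb).

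**Figure D3:**
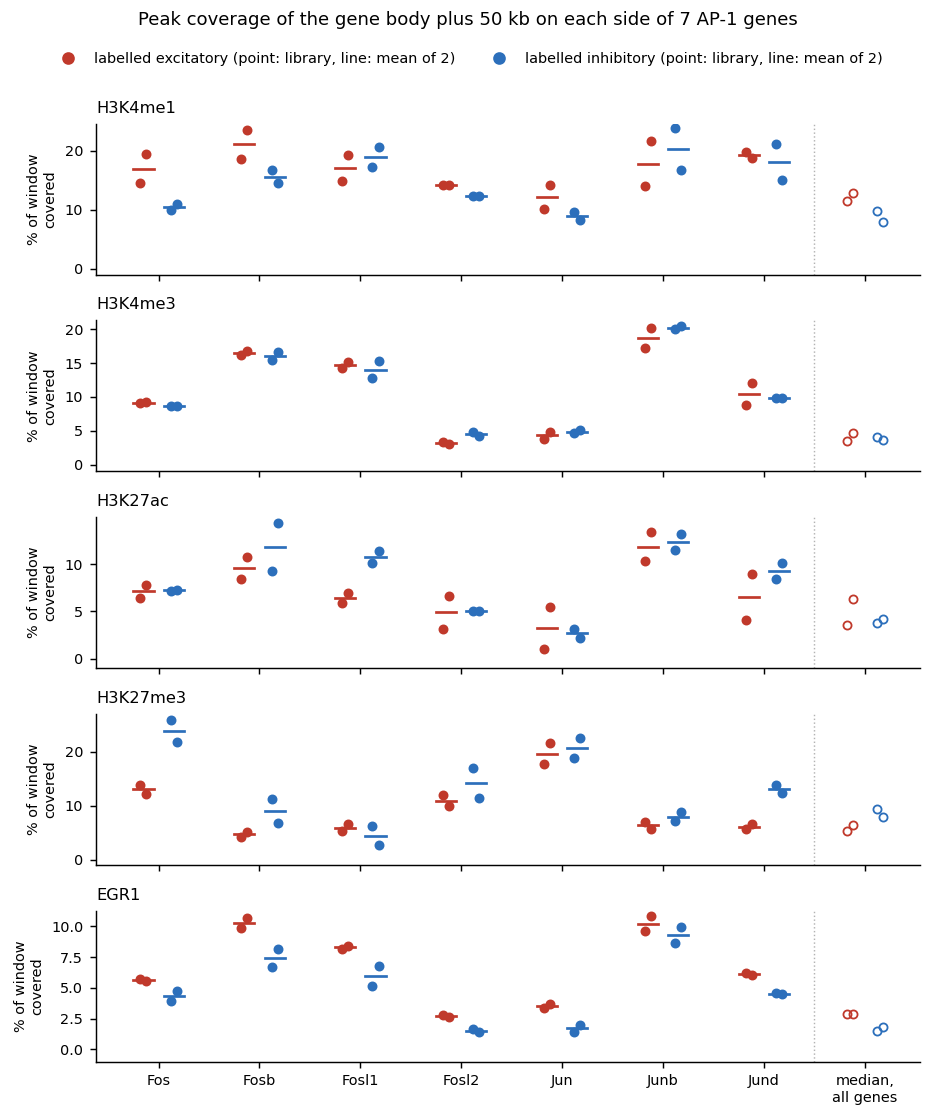
Percent of the gene body plus 50 kb on each side covered by peaks (y axis) for the 7 AP-1 genes (x axis), with 1 panel for each antibody; points are libraries, lines are means of 2 and open points at the right are medians over all genes. H3K27me3 at Fos is higher in both libraries labelled inhibitory (25.9% and 21.8%), and EGR1 is lower in both for 6 of 7 genes, as is the median of all genes.

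The surroundings of Jun differed from those of Fos. Its window also holds no other protein-coding gene, but the EGR1 regions present in all 4 libraries were both at the gene itself, at -1410 to 347 and 1242 to 2338 bases. The single region with peaks in both excitatory libraries and no inhibitory one was at 50371 to 50988 bases, with folds of 4.41 and 4.92. H3K27me3 covered the Jun flanks in both types, with 18.7% and 22.3% upstream in the excitatory pair and 24.1% and 27.6% in the inhibitory pair, and 19.3% and 24.4% against 16.5% and 20.3% downstream. At -31174 to -29834 bases (chr4:95082056-95083396) H3K27ac peaks were present in both inhibitory libraries and neither excitatory library. H3K4me3 showed the same pattern in a smaller region there, at -30308 to -30084, and H3K4me1 peaks lay over it in both inhibitory libraries and in excitatory library 2. No EGR1 peak lay there. The markers above go against the label of the inhibitory H3K27ac libraries, and the absence of excitatory peaks was not tested against read depth.

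**Figure D4:**
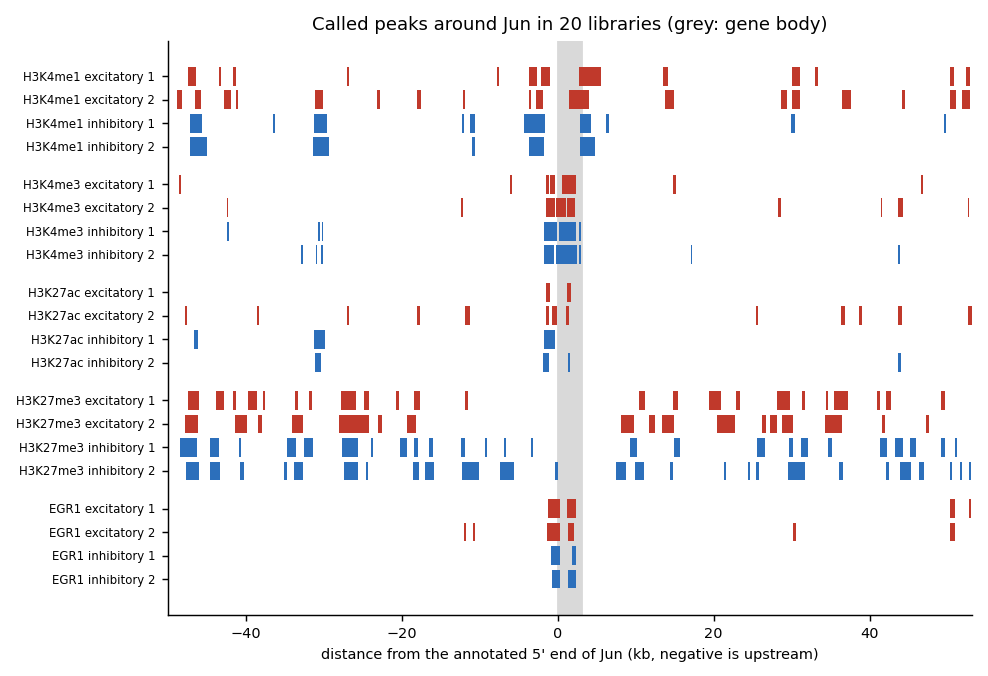
Called peaks of 20 libraries (rows, by antibody, label and replicate) against distance from the annotated 5′ end of Jun in kb (x axis); bars are peaks, red labelled excitatory and blue labelled inhibitory, and grey is the gene body. EGR1 peaks in all 4 libraries sit on the gene, H3K27me3 peaks lie in both flanks and reach the gene in inhibitory library 2 alone, and H3K27ac peaks at about -31174 bases appear in the 2 inhibitory libraries.

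Fosl2 had no distal EGR1 region in all 4 libraries. Of its 13 EGR1 regions, 1 was present in all 4, at the gene end, 4 in both excitatory libraries alone and 1 in both inhibitory libraries alone. Its downstream flank had H3K4me1 coverage of 9.61% and 12.2% in the excitatory pair and 0.706% and 0.613% in the inhibitory pair, and H3K27ac of 1.40% and 9.57% against 0% and 0%. Both marks were higher in both excitatory libraries there, while H3K27ac of the upstream flank was 3.41% and 3.26% against 10.5% and 9.66%. The windows of Fosb, Fosl1, Junb and Jund hold 7, 11, 8 and 5 other protein-coding genes, and many of their regions lie at those genes' ends. At Fosb, the region with the highest EGR1 folds (9.01, 8.22, 9.78 and 9.81) was at the end of another gene, chr7:19344601-19345648, and at Jund (12.2, 9.67, 9.98 and 12.5) likewise, chr8:70672860-70674084.

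Over all 7 windows, 97 EGR1 regions were counted by the libraries that had a peak in them. Of these 44 (45.4%) were present in all 4 libraries, where 18.2% of the 144718 EGR1 regions of the genome were. The windows hold many gene ends, where the share over all genes was 51.4%, and the part of this in the 45.4% was not tested. Both excitatory libraries and no inhibitory library had 12 (12.4%, beside 20.9%), and the reverse held for 2 (2.06%, beside 2.40%). At the members' gene ends 13 of 19 EGR1 regions (68.4%) were present in all 4 libraries, beside 51.4% at the gene ends of all genes. H3K4me3 at the gene ends showed 13 of 17 regions in all 4 libraries and 2 in both inhibitory libraries alone (76.5% and 11.8%, beside 38.6% and 2.21% at the gene ends of all genes). Where peaks had to cover at least 50% of a region for a library to count, 29 of 97 (29.9%) were present in all 4 libraries, beside 10.4% of all regions. At the members' gene ends this left 9 of 19 (47.4%), beside 37% for all genes. These shares are descriptions without a test.

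**Figure D5:**
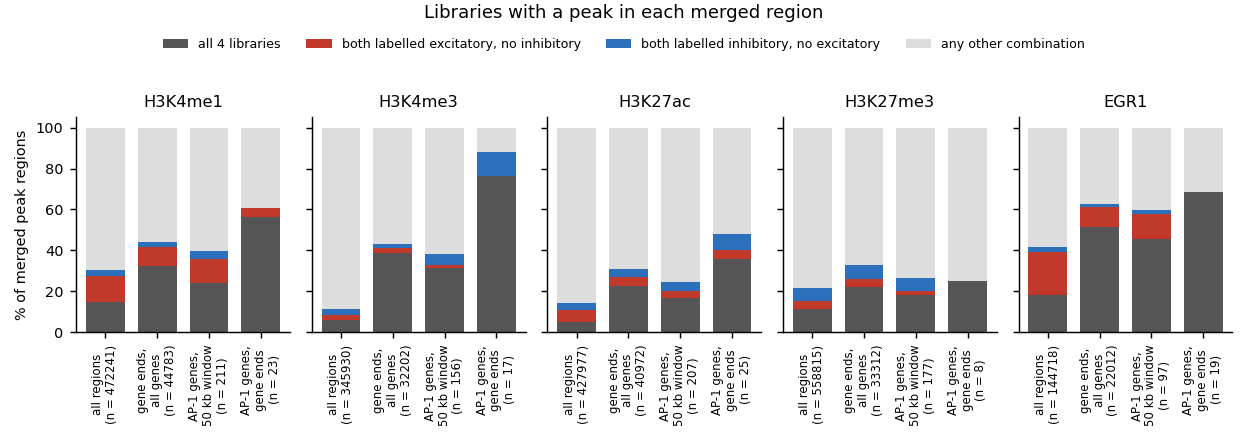
Percent of merged peak regions (y axis) with a peak in all 4 libraries of an antibody, in both libraries labelled excitatory alone, in both labelled inhibitory alone, or in another combination, for all regions, gene ends of all genes, and the windows and gene ends of the AP-1 genes (x axis, with the number of regions). For EGR1 the share in all 4 libraries is 68.4% at AP-1 gene ends and 51.4% at the gene ends of all genes. Over all regions it is 18.2%.

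Other genes of the pathway were read from lists chosen by function, with earlier results of these data known. Of 24 upstream regulators (kinases, CREB and SRF factors and their cofactors) 23 were tested for H3K27me3 in the 50 kb window, and 8 were called lower and 1 higher in the excitatory libraries, where 29.9% of all genes were called in either direction. The same list had 2 higher and 2 lower for H3K4me1, 2 and 1 for H3K4me3, 2 and 1 for EGR1 and none for H3K27ac. Of all genes, 20.5%, 7.59%, 13.1% and 5.41% were called in these fits, in that order. The same shares stand beside the counts of the other lists. Creb1, the cyclic AMP response factor, had 0.587% and 2.28% against 13.3% and 10.2% (normalized difference -8.21 ± 1.28, SE; limma adjusted p = 0.00183), and Ep300, an acetyltransferase, 2.58% and 4.86% against 11.9% and 11.8% (limma adjusted p = 0.0170). The list's median difference was -1.14 points, where that of all genes was 0.0409. Of 17 other immediate early genes, 4 were called higher in the excitatory libraries for EGR1 (Arc, Btg2, Egr2, Nr4a1) and none lower, where 13.1% of all genes were called in either direction. The list had 2 higher and 4 lower for H3K27me3, 2 and 0 for H3K4me1, 1 and 1 for H3K4me3 and none for H3K27ac. Arc, which encodes a synaptic capsid-like protein, had 10.9% and 9.91% against 2.41% and 2.57% (normalized difference 5.83 ± 0.548, SE; limma adjusted p = 0.00292). The median of that list was 0.504 points, where that of all genes was -0.0929.

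The 15 dimer partners outside the Fos and Jun families (ATF, BATF, JDP2 and MAF proteins) had 1 gene called higher and 2 lower in the excitatory libraries for H3K27me3, beside 29.9% of all genes. They had 1 higher and 3 lower for H3K4me1, 3 and 1 for H3K4me3, 0 and 2 for EGR1 and none for H3K27ac. The 2 genes called lower for EGR1, Batf2 and Mafg, were lower only after normalization. Before it their groups overlapped and the excitatory means were higher (3.46% against 3.14% for Batf2, 5.95% against 5.62% for Mafg). Jdp2, which encodes a repressor that pairs with Jun, had 7.03% and 9.32% against 16.9% and 16.1% (normalized difference -4.93 ± 1.5, SE; limma adjusted p = 0.0346). Of 12 later activity-regulated genes, 7 were called higher in the excitatory libraries for H3K4me1 and none lower, where 20.5% of all genes were called in either direction. The list had 2 higher and 3 lower for H3K27me3, 3 and 0 for EGR1, 1 and 0 for H3K4me3 and 1 and 0 for H3K27ac. The shares of all genes called were 29.9%, 13.1%, 7.59% and 5.41%, in that order. Vgf, a secreted neuropeptide precursor, had 16.5% and 19.7% against 9.13% and 5.59% (normalized difference 7.87 ± 1.41, SE; limma adjusted p = 0.0105), and Pdyn, the prodynorphin gene, 16.8% and 17.2% against 8.84% and 7.59% (limma adjusted p = 0.0266). The list's median difference was 3.77 points and that of all genes -0.213, while the AP-1 members had a median of -0.850 and no call in the same fit.

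Genes with the most similar gene-end profile were found by Pearson correlation over the 20 libraries, with each antibody centred, among 5511 genes covered in every antibody. Nearest to Fos were Dcst2 (r = 0.867), Arl14ep (0.863) and Hdac4 (0.839), to Fosb Fanca (0.808), to Fosl1 Parva (0.861) and to Fosl2 Plk1 (0.807). None of these is an AP-1 gene. Libraries of the same antibody share their peak calling and coverage, so r is given as a description. Jun, Junb and Jund had too little H3K27me3 to enter.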

How the data were processed

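The members and gene lists were chosen with earlier results of these data known. Nuclei were sorted by flow cytometry and CUT&RUN libraries made with commercial kits, per the labels' protocols. Per the submitters' processing notes the tools were MACS2 2.2.5, SAMtools 1.12, Picard 2.25.0, Bowtie2 2.3.5, Trim Galore 0.5.0 and cutadapt 1.18, on build mm10, with settings and controls not given in the labels or files. Every library has its own list of peaks from the authors, broad for H3K4me1 and H3K27me3 and narrow for the others. Each peak carries a deposited fold enrichment (a ratio to background), score, −log10 p-value and −log10 q-value and, in narrow lists, a summit offset. Fold, score and summit entered no test. The weakest peak of a library had an unadjusted p of 0.00481 to 0.00491 for EGR1, 0.0483 to 0.0498 for H3K4me3 and H3K27ac and 0.0988 to 0.0999 in the broad lists. In the EGR1 lists peak names carry other replicate numbers than the labels, and the labels were followed.

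Gene positions came from RefSeq (GRCm38.p6, the assembly of mm10) and promoter sequences from the RefSeq promoter table, which matched 6 of 7 members. Positions are 1-based. Fosl1 has no strand there, so its distances count from the lower-coordinate end. For each library the peak-covered percent of every window was computed (Python 3.11.15, pandas 2.3.3), quantile-normalized over the 4 libraries of an antibody and fitted in limma 3.58.1 (R 4.3.3; lmFit, eBayes with trend; two-sided), for genes with a covered base in at least 2 libraries. Differences are excitatory minus inhibitory on the normalized scale; levels are not normalized. The fit was run on simulated data with a scaled-down replicate spread and no difference in depth between libraries. That run checks the sign of large shifts and cannot give the error rate in these data. Overlapping peaks of the 4 libraries were merged into regions, and 1 shared base counted as present. From each list, at most 4 genes per fit past the threshold were eligible to be named, by size of difference; all 7 members were described. Alternatives were other scalings, peak thresholds, filters and windows, a replicate block and leaving out each library.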

Additional observations from a re-analysis of the deposited data

How the results depend on the processing

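Of 774 recomputed differences of the members (67 member values under up to 12 alternatives), 652 kept their sign and their side of the threshold, 17 became calls, 11 lost a call (all from Fos or Fosl1 H3K27me3 in the 50 kb window), 93 uncalled values changed sign, and 1 reversed: Jund EGR1 in the 50 kb window, not called at -0.530, was 1.58 and called without quantile normalization. The cause of each change below was not tested. The depth of the libraries is unknown, and with 2 libraries a group a difference that misses the threshold does not show that the types are alike.

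Members called changed as follows. At the gene ends, H3K4me3 had 1 (Jun) among genes covered in all 4 libraries or with the replicate block. In the 50 kb window, H3K4me1 had 1 (Fos) and EGR1 5 without normalization, H3K4me3 had 1 (Fosl2) using peaks at or above a -log10 p of 3, H3K27ac had 1 (Fosl1) with the replicate block, and H3K27me3 had 0 with no filter or with a window of 5 kb on each side, and Fos and Jund in place of Fos and Fosl1 without normalization or with the same number of strongest peaks. Leaving out each library in turn gave 0 to 3 members for H3K27ac (Fosl1 and Junb without excitatory library 1; Fosl1, Jun and Jund without excitatory library 2), 0 to 1 for H3K27me3 and 0 to 1 for H3K4me3 (Fosl2 without excitatory library 1).

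Genes called over the whole table moved by more than 1.5 times as follows, beside 219 (H3K4me1), 474 (H3K4me3) and 0 (the others) at gene ends and 4097 (H3K4me1), 1559 (H3K4me3), 1011 (H3K27ac), 6101 (H3K27me3) and 2431 (EGR1) in the 50 kb window. Without normalization there were 0 for H3K4me1 and H3K4me3 at gene ends, and 398 (H3K4me3), 0 (H3K27ac) and 10418 (EGR1) in the window. On the log2(percent + 1) scale there were 0 for H3K4me1 and H3K4me3 at gene ends. Using peaks at or above a -log10 p of 3 there were 0 for H3K4me1 at gene ends and 0 for H3K4me1, H3K27ac and H3K27me3 in the window; the members then had too few peaks to be tested for H3K4me1 and H3K27me3 at gene ends and for H3K27me3 in the window. With the same number of strongest peaks there were 0 for H3K4me1 at gene ends, and 2350 (H3K4me1), 862 (H3K4me3), 1850 (H3K27ac) and 795 (EGR1) in the window. With no filter there were 0 (H3K4me1), 0 (H3K4me3) and 53 (EGR1) at gene ends, and 849, 0, 568, 3676 and 148 in the window in the order H3K4me1, H3K4me3, H3K27ac, H3K27me3 and EGR1. Among genes covered in all 4 libraries there were 55 (H3K4me1) and 303 (H3K4me3) at gene ends. With narrower windows there were 0 for H3K4me1 and H3K4me3 at gene ends (1 kb), and 732, 111, 0, 0 and 432 in the same order of antibodies with 5 kb on each side. Leaving out each library in turn gave, at gene ends, 0 to 1 (H3K4me1), 0 to 0 (H3K4me3), 0 to 477 (H3K27ac) and 44 to 286 (H3K27me3), and in the window 0 to 4021 (H3K4me1), 0 to 1797 (H3K4me3), 174 to 7243 (H3K27ac), 3630 to 5243 (H3K27me3) and 659 to 2836 (EGR1).

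The groups share replicate numbers 1 and 2, and the deviations of same-numbered libraries correlated at -0.0337 to 0.119 over genes. With 2 libraries a group these values cannot show whether same-numbered libraries share an animal, a sort or a batch. The labels do not say. With the replicate block there were 849 (H3K4me1), 1221 (H3K4me3), 254 (H3K27ac) and 491 (H3K27me3) genes called at gene ends, and 3117 (H3K4me3) and 2684 (H3K27ac) in the window.

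For regions in the members' windows, peaks at or above a -log10 p of 3 left 13 H3K27ac regions in all 4 libraries (from 35) and 0 for H3K4me1 (from 51) and H3K27me3 (from 32), with 0 in both excitatory libraries alone for H3K4me1 (from 24), H3K27ac (from 7) and H3K27me3 (from 4) and 1 for H3K4me3 (from 2). Asking that peaks cover at least 50% of a region left 5 (H3K4me1), 11 (H3K27ac), 4 (H3K27me3) and 29 (EGR1, from 44) in all 4 libraries.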
